A study of Mus musculus with 8 samples.

Results

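RNA from mouse haematopoietic stem and progenitor cells (HSPCs) that lack β-catenin and Hoxa9 (double knockout, dKO) was compared between cells given wild-type PRMT1 and cells given an enzymatically dead PRMT1 mutant. The comparison used 4 of the 8 libraries of the series, 2 with the active enzyme (dKO_PRMT1) and 2 with the dead enzyme (dKO_MUT), assigned to their groups by the sample titles. In both groups the cells were transduced, so the contrast asks what the catalytic activity of the introduced protein changes in dKO cells, as far as the labels state it. The other 4 libraries, 2 from dKO cells carrying the vector without an insert (dKO_EV) and 2 from wild-type cells carrying the same (WT_EV), served to estimate the spread, and dKO_EV values are given beside those of the compared groups. Replicate 2 of dKO_MUT is grouped by its title, because its genotype label names PRMT2 where that of replicate 1 names PRMT1. The sources used here name neither the strain, the age and number of the animals, the promoter and species of the insert, nor the origin of the replicates, so p-values measure the spread between these libraries only.

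PRMT1 is the main type I protein arginine methyltransferase: it places asymmetric dimethylarginine on histone H4, on RNA-binding proteins and on transcription factors. In blood formation it acts on regulators of myeloid and megakaryocytic fate. Neutrophil precursors express their genes in a fixed order, with primary granule proteases in promyelocytes, secondary granule proteins in myelocytes and metamyelocytes, and gelatinase, chemotactic receptors and other late genes in the most mature cells. Mast cells and basophils arise from neighbouring progenitors under the control of the transcription factor GATA2.

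The 4 libraries held 18507738 to 21405414 counted reads. Levels are given as CPM, the count per 1000000 reads of the library's total over tested genes, with that total adjusted by edgeR's TMM scaling factor. Prmt1 stood at 1744 and 1758 CPM with the dead enzyme and at 981 and 976 CPM with the active one, against 190 and 194 CPM in dKO_EV. Prmt1 RNA was thus above dKO_EV in both groups, and its total was 1.79-fold higher with the dead mutant. This total includes the cells' own transcript, so the ratio between the inserts alone was not measured. It would be larger than 1.79 if the cells' own transcript stayed at its dKO_EV level. Prmt2, named in the genotype label of dKO_MUT replicate 2, read 3.45 and 3.96 CPM in dKO_MUT replicates 1 and 2, against 5.66 and 6.18 CPM in dKO_EV. By RNA, replicate 2 of dKO_MUT thus had raised Prmt1, as replicate 1 had, and no raised Prmt2. The level and the activity of the insert cannot be told apart in any result that follows. Of the deleted genes, Hoxa9 gave 4.85 and 1.95 CPM with the dead and 3.76 and 1.87 CPM with the active enzyme, and Ctnnb1, which encodes β-catenin, gave 360 and 368 and 372 and 371 CPM. Neither was called, and since the sources used here do not name the deleted exons, these levels do not check the deletion. The progenitor markers Kit (164 and 154 and 170 and 171 CPM in the same order) and Ptprc were present in all 4 libraries, Slamf1 stayed between 0.466 and 1.36 CPM, and Cd3e and Hbb-bs had 0 counts in every library, which allows up to 3 counts a library. Both groups expressed the Y-linked Ddx3y at 62.8 to 68.5 CPM and had 0 counts of Xist, so they did not differ in sex. The WT_EV libraries, which entered the estimate of the spread, had Xist at 159 and 121 CPM and 0 counts of Ddx3y. They thus differed in sex from the compared groups. The 2 dKO_EV libraries were the least alike of any group, with a Pearson correlation of log2 CPM across genes of 0.9775. That correlation between replicates was 0.9857 in dKO_MUT, 0.9884 in dKO_PRMT1 and 0.9916 in WT_EV.

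Fold changes are active over dead enzyme on the log2 scale, each with its standard error, and a gene was called when edgeR's quasi-likelihood test gave a Benjamini-Hochberg adjusted p below 0.05 over all tested genes. Of 12743 genes tested apart from Prmt1, 395 were called (3.10%), 182 of them higher (1.43%) and 213 lower (1.67%) with the active enzyme. At an unadjusted p below 0.05 there were 1688. The called differences were small: their median absolute log2 fold change was 0.33, and 32 higher and 62 lower genes passed 1.5-fold. At 2-fold or more the count was 5 higher and 21 lower. In all 395 called genes the libraries of the 2 groups did not overlap in CPM, which held for 44.1% of all tested genes. The share of genes called rose with level, from 0.42% of genes below 5 CPM through 2.05% between 5 and 50 CPM to 5.95% of genes at 50 CPM or more. Without 1 library the total fell to 170 (69 higher and 101 lower) without dKO_PRMT1 replicate 1, 204 (92 and 112) without dKO_PRMT1 replicate 2, 243 (101 and 142) without dKO_MUT replicate 1 and 239 (105 and 134) without dKO_MUT replicate 2. The 2-fold count of 26 became 17 without dKO_PRMT1 replicate 1, 44 without dKO_EV replicate 1 and 43 without dKO_EV replicate 2. Because of this, 124 called genes that kept their call without each of the 8 libraries in turn (53 higher, 71 lower) carry most of what follows, and a named gene outside that set is given with the library whose absence removed its call.

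**Figure D1:**
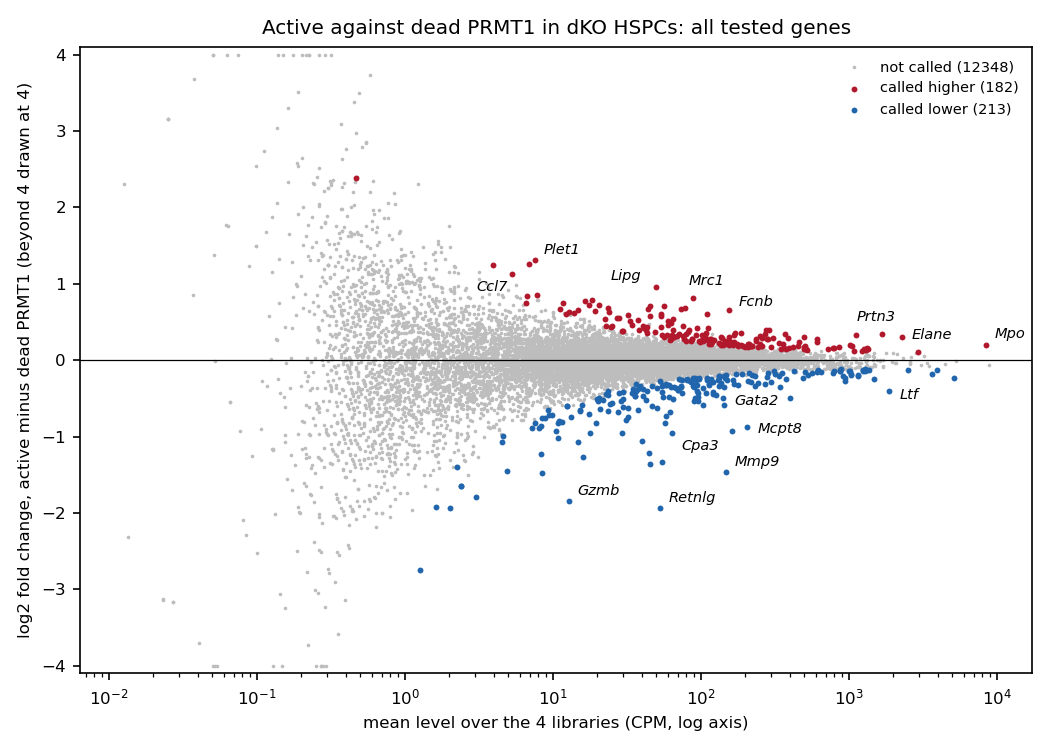
Log2 fold change of active over dead PRMT1 (vertical axis, values beyond 4 drawn at 4) against the mean level over the 4 libraries in CPM (horizontal log axis), 1 point a gene, for the 12743 genes tested. The 182 genes called higher are red and the 213 called lower are blue; the abundant granule genes Mpo, Elane and Prtn3 lie above 0, and Retnlg, Gzmb and Mmp9 lie farthest below it among labelled genes.

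Genes of successive stages of neutrophil development moved in different directions. Of 15 primary granule genes, 10 rose with the active enzyme and 0 fell (66.7% called, against 3.10% of all tested genes). Their median log2 fold change was 0.16, against -0.0014 for all tested genes. Of 25 secondary granule genes, 1 rose and 8 fell (36% called, median -0.07). Of 34 tested late neutrophil genes, 0 rose and 18 fell (52.9% called, median -0.39). The primary count was 7 to 8 without any 1 of the 4 compared libraries, the secondary count of lower genes 7, and the late count 14 to 17. In bulk RNA, fewer cells of a type and less RNA per cell cannot be told apart, here and in the groups below.

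Among primary granule genes, Prtn3, the proteinase 3 gene, stood at 1432 and 1500 CPM in the 2 libraries with the dead enzyme and at 1861 and 1872 CPM in those with the active enzyme. It rose 1.27-fold (log2 fold change 0.35 ± 0.03, adjusted p = 1.78e-09). Elane, which encodes neutrophil elastase and lies next to Prtn3 on chromosome 10 (chr10:79886312-79888216), went from 1966 and 2102 to 2508 and 2523 CPM (0.31 ± 0.03). Mpo, myeloperoxidase, was the most abundant of the list at 7734 and 8030 CPM with the dead and 9081 and 9064 CPM with the active enzyme (0.20 ± 0.03). The groups did not overlap in these genes, as in every called gene. The libraries of a group lay closer to each other than to the other group. Ms4a3, a membrane protein of granulocyte-monocyte progenitors, rose by 0.30 ± 0.04, and Prss57, a further granule serine protease, by 0.45 ± 0.09. In dKO_EV both proteases were lower than in either compared group, Prtn3 at 1117 and 1106 and Elane at 1529 and 1584 CPM. Against those shared libraries Prtn3 gave 0.75 ± 0.03 with the active and 0.40 ± 0.03 with the dead enzyme, and Mpo gave 0.56 ± 0.03 and 0.35 ± 0.03.

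The promoters of 3 of these genes are shown because each holds the core letters bound by PU.1, the master regulator of myeloid cells. Its own gene, Spi1, read 367 and 372 CPM with the dead and 389 and 383 CPM with the active enzyme (log2 fold change 0.06 ± 0.05, not called). Each line gives the 250 bases before the start site, 5′ to 3′ on the gene's strand, from the RefSeq promoters on GRCm38.p6, with GAGGAA or its reverse complement TTCCTC in capitals. Prtn3 lies at chr10:79879417-79879666, Elane at chr10:79886062-79886311 and Mpo at chr11:87793534-87793783, all on the plus strand.
Prtn3: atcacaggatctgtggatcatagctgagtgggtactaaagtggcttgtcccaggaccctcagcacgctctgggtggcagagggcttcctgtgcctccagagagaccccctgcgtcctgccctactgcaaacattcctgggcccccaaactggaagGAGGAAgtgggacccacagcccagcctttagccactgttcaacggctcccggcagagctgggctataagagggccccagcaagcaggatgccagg
Elane: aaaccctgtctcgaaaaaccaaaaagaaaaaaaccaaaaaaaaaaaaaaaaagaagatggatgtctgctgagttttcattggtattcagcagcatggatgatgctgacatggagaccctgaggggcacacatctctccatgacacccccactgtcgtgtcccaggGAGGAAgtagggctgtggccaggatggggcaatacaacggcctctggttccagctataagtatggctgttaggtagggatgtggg
Mpo: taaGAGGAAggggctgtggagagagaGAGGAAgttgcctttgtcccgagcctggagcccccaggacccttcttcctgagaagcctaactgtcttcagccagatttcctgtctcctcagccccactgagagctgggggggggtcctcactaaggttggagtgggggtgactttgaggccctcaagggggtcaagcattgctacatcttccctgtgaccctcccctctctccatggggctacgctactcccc
The match begins 95 bases before the start in Prtn3 and 85 bases before it in Elane, while the 2 matches in Mpo begin 247 and 224 bases before it. These letters occurred on either strand in 6 of the 12 primary granule genes with a promoter (50%), in 14 of 28 late neutrophil genes (50%) and in 22.8% of the 9723 tested genes with a promoter. Among the primary granule genes that rose the count was 4 of 8, and among the late genes that fell it was 6 of 14.

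Secondary granule genes were split. Ltf, lactoferrin, fell from 2112 and 2137 to 1622 and 1602 CPM (-0.40 ± 0.03), and Mmp8, the neutrophil collagenase, from 474 and 462 to 345 and 319 CPM (-0.50 ± 0.04). Olfm4, a granule glycoprotein of a neutrophil subset, fell from 71.8 and 74.8 to 40.4 and 42.7 CPM (-0.82 ± 0.09), and Lcn2, the siderophore-binding lipocalin, fell by 0.23 ± 0.04. Fcnb, ficolin B, was the member that rose: its libraries read 125 and 114 CPM with the dead and 195 and 183 CPM with the active enzyme (0.66 ± 0.06, adjusted p = 3.96e-09), without overlap. Camp, the cathelicidin gene, showed no called difference at 891 and 912 and 848 and 886 CPM (-0.06 ± 0.04), and neither did Chil3, at 1690 and 1706 and 1691 and 1711 CPM. Ltf, at 1373 and 1422 CPM in dKO_EV, gave 0.21 ± 0.03 against the empty vector with the active and 0.60 ± 0.03 with the dead enzyme, so both compared groups lay above dKO_EV for this gene.

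The late neutrophil genes included the largest decrease among genes with an established symbol and 5 CPM or more. Retnlg, a resistin-like peptide of mature neutrophils (chr16:48872608-48874498), stood at 83.5 and 84.5 CPM with the dead enzyme and at 21.8 and 22.01 CPM with the active one. It fell 3.83-fold (-1.94 ± 0.10, adjusted p = 5.98e-17), the smallest p of any called gene. Mmp9, gelatinase B, fell 2.76-fold from 226 and 211 to 78.6 and 79.9 CPM (-1.47 ± 0.07). Cxcr2, the chemokine receptor through which neutrophils leave the marrow, fell from 60.96 and 63.2 to 24.7 and 28.7 CPM (-1.22 ± 0.09). The formyl peptide receptors, which guide neutrophils to bacteria, moved with it: Fpr1 fell from 20.7 and 24.5 to 9.93 and 8.75 CPM (-1.27 ± 0.15) and Fpr2 from 39.5 and 38.2 to 20.96 and 19.2 CPM (-0.95 ± 0.11). The groups did not overlap in any of these genes, which held for every called gene. The replicates of a group lay closer to each other than to the other group. Smaller decreases were seen in Mxd1, a MYC antagonist of differentiating myeloid cells (-0.44 ± 0.06), in the glucose transporter gene Slc2a3 (-0.53 ± 0.07) and in the abundant calprotectin subunit S100a9 (-0.24 ± 0.03). The receptor for G-CSF, Csf3r, read 221 and 222 and 198 and 198 CPM and was not called (-0.16 ± 0.05, adjusted p = 0.102).

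Levels against the empty vector differed among the late genes. For Retnlg, Mmp9 and Cxcr2 the active-enzyme libraries lay farther from dKO_EV than the dead-enzyme libraries did. Retnlg, at 69.4 and 73.8 CPM in dKO_EV, gave 0.23 ± 0.09 with the dead and -1.71 ± 0.10 with the active enzyme. Mmp9, at 229 and 197 CPM, gave 0.04 ± 0.06 and -1.43 ± 0.07, and Cxcr2, at 75.7 and 70.1 CPM, gave -0.23 ± 0.09 and -1.45 ± 0.09. S100a9, by contrast, gave 0.35 ± 0.03 with the dead and 0.12 ± 0.03 with the active enzyme. The summed level of the late list, which abundant members such as S100a9 dominate, was 12150 and 12060 CPM with the dead and 10190 and 10530 CPM with the active enzyme against 9671 and 10160 CPM in dKO_EV, so by this sum the dead-enzyme libraries lay farther from the empty vector. Over the 34 late genes the median was 0.15 for dead enzyme against empty vector and -0.29 for active enzyme against empty vector, 2 comparisons that share the dKO_EV libraries. The primary granule list gave 0.20 and 0.38 in the same order.

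**Figure D2:**
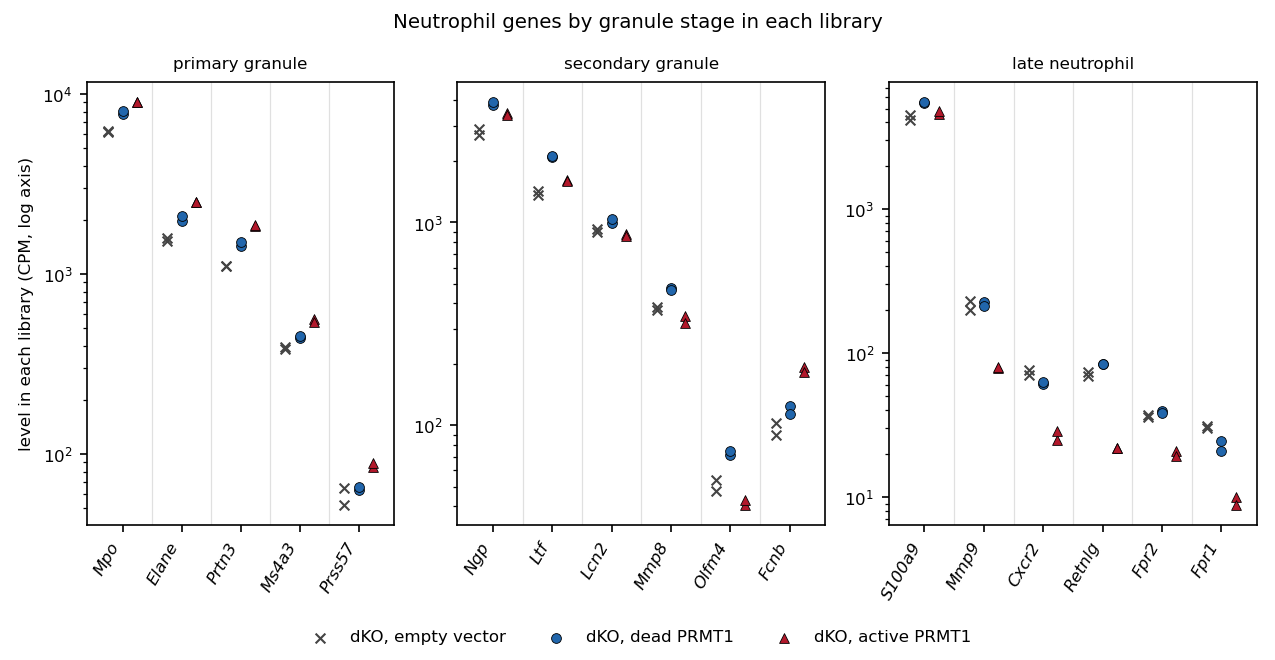
Level of 17 neutrophil genes in each dKO library (CPM, log axis), with crosses for empty vector, blue circles for dead PRMT1 and red triangles for active PRMT1, 2 libraries a group. Triangles lie above circles for the 5 primary granule genes and for Fcnb, and below them for the other genes, with the widest gaps at Retnlg, Mmp9 and Fpr1.

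Mast cell and basophil genes fell with the active enzyme, and 51.9% of the tested members were called, against 3.10% of all tested genes. Of 27 tested members 13 fell and 1 rose (median -0.48), and 12 fell without any 1 of the 4 compared libraries. The member that rose was Srgn, the granule proteoglycan that neutrophil precursors also express (0.16 ± 0.04). Its call was lost without dKO_MUT replicate 2 and without dKO_PRMT1 replicate 1, with a highest adjusted p of 0.137.

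Cpa3, the carboxypeptidase of mast cell granules (chr3:20215616-20242181), stood at 213 and 213 CPM with the dead enzyme and 108 and 116 CPM with the active one, a 1.9-fold decrease (-0.93 ± 0.05, adjusted p = 6.24e-16). The basophil proteases fell with it, Mcpt8 from 260 and 270 to 139 and 151 CPM (-0.87 ± 0.06) and Prss34 from 82.4 and 75.5 to 29.7 and 33.04 CPM (-1.33 ± 0.08). Fcer1a, the α chain of the high-affinity IgE receptor, fell 2.57-fold from 63.6 and 66.5 to 25.2 and 25.5 CPM (-1.36 ± 0.09). The receptor's β chain gene, Ms4a2, fell from 74.7 and 71.7 to 45.1 and 42.9 CPM (-0.73 ± 0.08), so 2 subunits of the same receptor were lower. Il1rl1, the IL-33 receptor, fell by 0.62 ± 0.10, and Cd200r3, an activating receptor of basophils, fell by 1.01 ± 0.19, with the call lost without dKO_MUT replicate 2 (adjusted p = 0.0548). Gzmb, granzyme B, fell 3.6-fold, from 19.9 and 20.1 to 5.92 and 5.21 CPM (-1.85 ± 0.12). It also stands on the list of T and NK cell markers, of which 15 were tested and 13.3% called. Of the others 1, Nkg7, was called and rose (0.32 ± 0.07, lost without dKO_MUT replicate 1 at adjusted p = 0.0618), and over the whole list 3 were higher and 3 lower at an unadjusted edgeR p below 0.05. The summed level of that list was 165.4 and 170 CPM with the dead and 171.2 and 174.7 CPM with the active enzyme, Cd3e among its defining markers was at 0 in all 4 libraries, and the part of such cells in the Gzmb values was not tested.

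Gata2, the transcription factor of mast cells and early progenitors, read 183 and 164 CPM with the dead and 125 and 107 CPM with the active enzyme and fell 1.5-fold (-0.58 ± 0.06, adjusted p = 9.04e-08). Kit, the stem cell factor receptor on which mast cells depend, was not called (0.10 ± 0.06). Against the empty vector, Fcer1a gave -1.08 ± 0.09 with the active and 0.28 ± 0.09 with the dead enzyme, and Gata2 -0.71 ± 0.06 and -0.13 ± 0.06. The medians over the list were -0.69 with the active and -0.06 with the dead enzyme.

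The promoters of 4 mast cell and basophil genes that fell are shown because they hold the letters AGATAA, or the reverse complement TTATCT, that GATA factors bind, in capitals. They are the 250 bases before the start site from RefSeq on GRCm38.p6, 5′ to 3′ on the gene's strand: Cpa3 at chr3:20242182-20242431 on the minus strand, Prss34 at chr17:25298144-25298393 on the plus strand, Fcer1a at chr1:173227230-173227479 on the minus strand and Ms4a2 at chr19:11623720-11623969 on the minus strand.
Cpa3: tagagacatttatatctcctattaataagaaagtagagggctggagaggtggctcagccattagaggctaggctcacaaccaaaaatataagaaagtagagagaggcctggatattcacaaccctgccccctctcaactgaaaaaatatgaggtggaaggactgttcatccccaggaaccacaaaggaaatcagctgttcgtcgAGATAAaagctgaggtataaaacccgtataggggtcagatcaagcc
Prss34: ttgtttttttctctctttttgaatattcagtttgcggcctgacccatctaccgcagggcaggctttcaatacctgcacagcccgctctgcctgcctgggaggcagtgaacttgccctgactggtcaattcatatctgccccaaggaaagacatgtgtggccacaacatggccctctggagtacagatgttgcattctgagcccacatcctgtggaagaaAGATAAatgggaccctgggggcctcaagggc
Fcer1a: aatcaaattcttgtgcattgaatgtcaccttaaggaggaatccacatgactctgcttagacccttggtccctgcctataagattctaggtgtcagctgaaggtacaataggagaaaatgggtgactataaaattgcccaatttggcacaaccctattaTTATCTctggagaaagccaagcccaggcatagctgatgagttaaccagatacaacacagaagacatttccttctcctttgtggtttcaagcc
Ms4a2: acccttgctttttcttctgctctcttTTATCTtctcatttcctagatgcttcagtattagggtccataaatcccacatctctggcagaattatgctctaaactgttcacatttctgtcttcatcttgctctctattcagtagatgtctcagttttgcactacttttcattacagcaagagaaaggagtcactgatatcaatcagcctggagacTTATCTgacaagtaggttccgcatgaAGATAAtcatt
The match begins 46 bases before the start in Cpa3, 31 in Prss34 and 92 in Fcer1a, and Ms4a2 has 3, at 224, 37 and 11 bases. These letters occurred on either strand in 7 of the 13 list members that fell (53.8%), namely these 4 with Cd200r3, Il1rl1 and Slc18a2, and in 0 of the other 12 members with a promoter. The call of Slc18a2, the vesicular amine transporter, was lost without dKO_MUT replicate 1 or either dKO_PRMT1 library (highest adjusted p = 0.315). Among all 9723 tested genes with a promoter the share was 5.76%. The C/EBP letters TTNNGCAA or TTGCNNAA occurred in 4 of the 13 members that fell (30.8%), against 7.6% of all those tested. The PU.1 letters occurred in 5 of the 13 (38.5%), against 22.8%. Over the 25 list members with a promoter, the GATA letters occurred in 7 (28%) and the C/EBP letters in 9 (36%). The GATA letters also occurred in 3 of the 14 late neutrophil genes that fell (21.4%). None of the matches shown shares a base with a match of the other motifs searched, and a match is a description of letters, not a measured binding site.

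**Figure D3:**
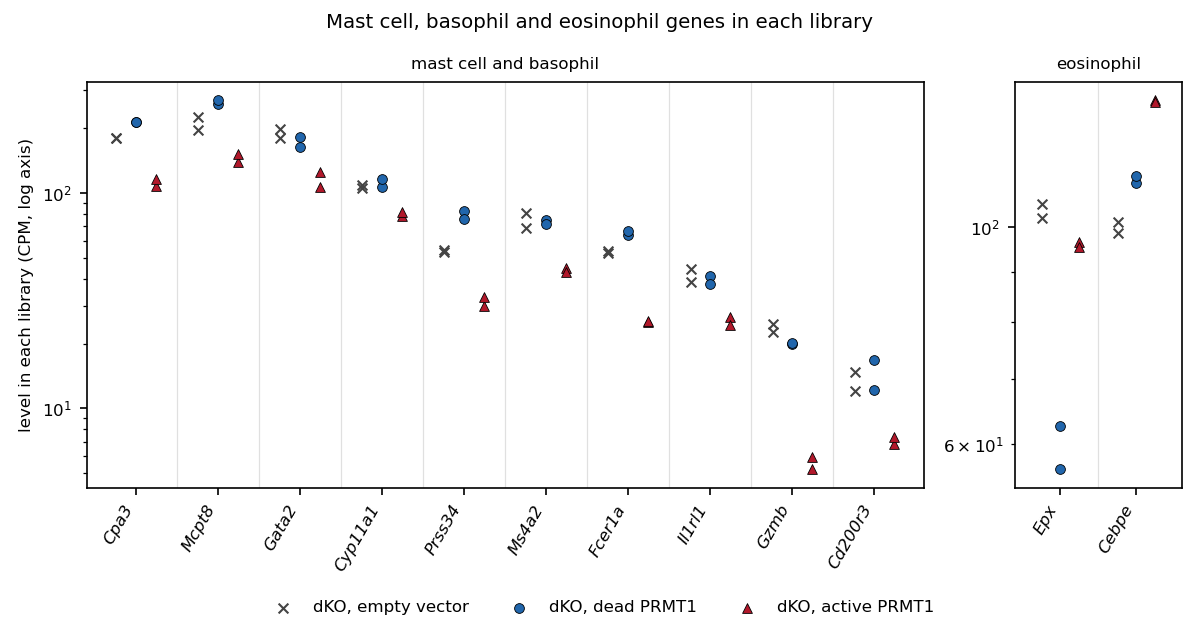
Level of 10 mast cell and basophil genes and 2 eosinophil genes in each dKO library (CPM, log axis), with crosses for empty vector, blue circles for dead PRMT1 and red triangles for active PRMT1. All 10 mast cell and basophil genes lie lower with the active enzyme than with the dead one or the empty vector, while Epx and Cebpe lie higher than with the dead one.

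Of 12 tested eosinophil genes, 2 rose and 0 fell (16.7% called, against 3.10% of all tested genes). Their median log2 fold change was 0.31, with values from -3.13 to 1.19, and 6 of the 12 stood at 5 CPM or more. At an unadjusted edgeR p below 0.05, 5 were higher and 2 lower. Epx, eosinophil peroxidase, stood at 62.6 and 56.5 CPM with the dead and 96.7 and 95.5 CPM with the active enzyme and rose 1.61-fold (0.69 ± 0.07, adjusted p = 1.60e-08). In dKO_EV it read 106 and 102 CPM, so the active-enzyme libraries lay nearer to the empty vector (-0.11 ± 0.07) than the dead-enzyme libraries did (-0.80 ± 0.07). Cebpe, the factor of terminal granulocyte differentiation, was the other called member of 12, at 111 and 113 against 135 and 135 CPM (0.27 ± 0.06). Its call was lost without dKO_MUT replicate 1 (adjusted p = 0.088), dKO_PRMT1 replicate 1 (0.125) or dKO_PRMT1 replicate 2 (0.087). Prg2, major basic protein, was not called at 120 and 89.4 and 131 and 135 CPM (0.35 ± 0.13).

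Among myeloid fate transcription factors, 6 of 37 rose and 2 fell (21.6% called, against 3.10% of all tested genes, median 0.04). Gfi1, the repressor required for neutrophil differentiation, rose 1.52-fold from 89.02 and 86.9 to 130 and 138 CPM (0.60 ± 0.07, adjusted p = 4.71e-08), against 81.8 and 85.7 CPM in dKO_EV. Gata2 fell, as given above, and the other member that fell was Irf8, the monocyte and dendritic cell factor (-0.21 ± 0.06), with a call that was lost without any 1 of the 4 compared libraries (highest adjusted p = 0.245). Cebpa, the factor that starts granulopoiesis, was not called at 260 and 292 and 289 and 271 CPM (0.02 ± 0.05). The count of members that rose was 3 without dKO_MUT replicate 1 and 2 without dKO_MUT replicate 2, dKO_PRMT1 replicate 1 or dKO_PRMT1 replicate 2, and the count that fell was 1 without any of these.

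Macrophage genes divided. Of 42 monocyte and macrophage markers, 11 rose and 6 fell (40.5% called, against 3.10% of all tested genes, median 0.03). Mrc1, the mannose receptor, rose from 65.3 and 62.4 to 115 and 110 CPM (0.82 ± 0.07, adjusted p = 7.35e-11), and Mmp12, macrophage elastase, from 56.1 and 57.9 to 92.5 and 89.3 CPM (0.67 ± 0.06). Cd36, a scavenger receptor for oxidised lipid, rose from 13.8 and 16.6 to 25.8 and 21.5 CPM (0.64 ± 0.11). Apoe, the lipid carrier, fell from 72.7 and 81.3 to 51.9 and 43.9 CPM (-0.68 ± 0.10), and Mpeg1, the macrophage perforin, fell by 0.21 ± 0.03. None of these groups overlapped, which is true of every called gene. Levels in dKO_EV were 130 and 147 CPM for Mrc1, 180 and 194 CPM for Mmp12 and 74.8 and 79.5 CPM for Cd36, above both compared groups in every case. Mmp12 gave -1.04 ± 0.06 against the empty vector with the active and -1.72 ± 0.06 with the dead enzyme. On leaving 1 out, the count that rose was 6 (dKO_MUT replicate 1), 4 (dKO_PRMT1 replicate 1) or 6 (dKO_PRMT1 replicate 2), and the count that fell was 3 without dKO_MUT replicate 1.

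Of 40 chemokine and NF-κB genes, 2 rose and 3 fell (12.5% called, against 3.10% of all tested genes). The monocyte attractants Ccl2 and Ccl7 rose, Ccl2 from 10.1 and 14.6 to 21.2 and 20.6 CPM (0.77 ± 0.12) and Ccl7 from 4.19 and 5.37 to 8.37 and 8.703 CPM (0.84 ± 0.15). Both stayed far below dKO_EV, where Ccl2 read 79.1 and 71.3 CPM and Ccl7 41.4 and 41.9 CPM. Ccl6, a myeloid chemokine, fell from 136 and 139 to 98.4 and 107 CPM (-0.42 ± 0.06). The other members that fell were Slc7a11, the cystine transporter (-0.67 ± 0.13), and Ccl3 (-0.59 ± 0.14). Both calls were lost without dKO_MUT replicate 2 (adjusted p = 0.0922 and 0.0928) and without dKO_PRMT1 replicate 2 (0.0522 and 0.261).

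Of 21 dendritic cell markers 7 rose and 1 fell (38.1% called, against 3.10% of all tested genes). The 7 that rose are the members of that list that serve antigen presentation by MHC class II molecules, a grouping made after their values were seen. Of these, H2-DMa and H2-DMb1, which load peptides onto class II molecules, lost their calls without dKO_MUT replicate 1 or dKO_PRMT1 replicate 1 (highest adjusted p = 0.186 and 0.583), and H2-DMb1 also without dKO_PRMT1 replicate 2. The member that fell was Bst2, an interferon-induced gene (-0.24 ± 0.06), whose call was lost without dKO_MUT replicate 1 and without dKO_PRMT1 replicate 1, with a highest adjusted p of 0.293. Ciita, the transactivator of the class II genes, rose 1.63-fold from 36.5 and 32.4 to 55.9 and 56.7 CPM (0.71 ± 0.10, adjusted p = 8.14e-06). H2-Ab1 stood at 243 and 230 CPM with the dead and 315 and 309 CPM with the active enzyme (0.40 ± 0.05), and H2-Aa at 238 and 241 and 300 and 310 CPM (0.35 ± 0.05). Cd74, the invariant chain that escorts class II molecules, read 985 and 993 and 1263 and 1219 CPM (0.33 ± 0.04), and H2-Eb1 rose by 0.33 ± 0.05. The active-enzyme libraries lay above dKO_EV in each of these genes and the dead-enzyme libraries did not lie above its range, with 0.53 ± 0.10 and -0.18 ± 0.10 for Ciita. Over the whole list the median was 0.33, with 10 members higher and 2 lower at an unadjusted edgeR p below 0.05, and of the 14 members outside class II presentation 0 rose and 1 fell. Among those, Itgax, the integrin CD11c, was not called at 13.7 and 15.2 and 22.4 and 18.98 CPM (0.52 ± 0.16, adjusted p = 0.0682), Flt3 read 16.2 and 19.5 and 16.8 and 17.9 CPM (-0.04 ± 0.14), and Xcr1, Clec9a, Zbtb46 and Batf3 were each below 2 CPM in all 4 libraries.

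Class I and interferon-stimulated genes went the other way. Of 21 class I and immunoproteasome genes, 0 rose and 5 fell (23.8% called, against 3.10% of all tested genes). H2-K1 fell from 1028 and 1032 to 868 and 845 CPM (-0.27 ± 0.03), H2-D1 from 392 and 378 to 304 and 303 CPM (-0.35 ± 0.04) and B2m, the light chain they share, from 1265 and 1219 to 1088 and 1075 CPM (-0.20 ± 0.03). Of 54 interferon-stimulated genes, 0 rose and 11 fell (20.4% called, median -0.08). Rsad2, the antiviral enzyme viperin, fell 1.72-fold from 36.3 and 43.2 to 25.5 and 20.6 CPM (-0.78 ± 0.10), and Ifit3, which binds foreign RNA with its paralogs, from 44.2 and 47.3 to 29.5 and 28.6 CPM (-0.65 ± 0.08). Slfn1, a Schlafen family gene, fell by 0.37 ± 0.07. Reads of Ifit3 can be shared with its near copy Ifit3b, and those of H2-K1 and H2-D1 with each other, which makes the split between such genes uncertain. Both groups lay below dKO_EV: Rsad2 read 83.1 and 85.5 CPM there, and the list's medians were -0.75 with the active and -0.69 with the dead enzyme. The interferon count was 7 without dKO_MUT replicate 2 and 6 without dKO_PRMT1 replicate 1 or replicate 2. Ifngr1, a chain of the interferon-γ receptor, rose from 256 and 259 to 312 and 310 CPM (0.28 ± 0.04).

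**Figure D4:**
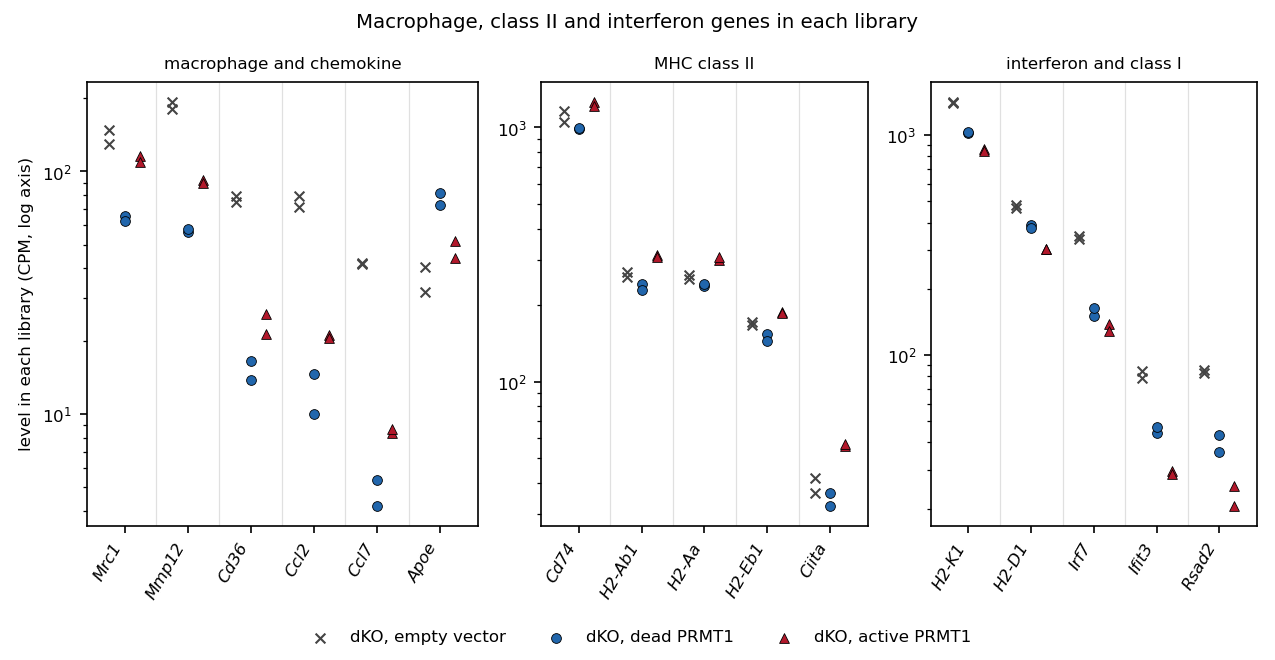
Level of macrophage and chemokine genes (left), MHC class II genes (middle) and class I and interferon genes (right) in each dKO library (CPM, log axis), with crosses for empty vector, blue circles for dead PRMT1 and red triangles for active PRMT1. The class II genes lie highest with the active enzyme, the class I and interferon genes lie lowest with it, and Cd36, Ccl2 and Ccl7 lie far below the empty vector in both compared groups.

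Of 52 stem and progenitor genes 3 rose and 6 fell (median -0.12), a share called of 17.3% against 3.10% of all tested genes. At an unadjusted edgeR p below 0.05, 3 were higher and 16 lower. The count that fell was 4 without dKO_MUT replicate 2 or dKO_PRMT1 replicate 1. Cd34, the progenitor sialomucin, fell from 148 and 144 to 108 and 105 CPM (-0.45 ± 0.06, adjusted p = 7.78e-07), and Adgrg1, an adhesion receptor of stem cells, fell by 0.32 ± 0.04. Cish, the feedback inhibitor that STAT5 induces, rose from 41.3 and 45.1 to 68.9 and 59.96 CPM (0.58 ± 0.09), near the 68.5 and 66.8 CPM of dKO_EV. It was accompanied on the STAT5 list of 33 (9.09% called) by 2 other members, Pim1 and Jak2, with smaller values of 0.21 ± 0.06 and 0.20 ± 0.05. The call of Jak2 was lost without any 1 of the 4 compared libraries (highest adjusted p = 0.249), and that of Pim1 without dKO_MUT replicate 1 (0.282), dKO_PRMT1 replicate 1 (0.384) or dKO_PRMT1 replicate 2 (0.0565). Cdkn1c, a CDK inhibitor of quiescent stem cells, was barely detected, at 1.91 and 4.56 CPM with the dead and 0.853 and 0.81 CPM with the active enzyme (-1.94 ± 0.45), and its call was lost without dKO_MUT replicate 2 (adjusted p = 0.345), dKO_PRMT1 replicate 1 (0.106) or dKO_PRMT1 replicate 2 (0.0988).

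Of 25 megakaryocyte and platelet markers, 1 rose and 5 fell (24% called, against 3.10% of all tested genes). Itga2b, integrin αIIb, fell from 104 and 111 to 83.1 and 79.6 CPM (-0.40 ± 0.06), while Thbs1, thrombospondin, rose from 343 and 354 to 415 and 437 CPM (0.29 ± 0.04). The count that fell was 8 without either dKO_EV library, 3 without dKO_MUT replicate 2, and 1 and 3 without dKO_PRMT1 replicates 1 and 2. Pf4, platelet factor 4, was not called at 67.1 and 59.9 and 60.8 and 64.6 CPM. Erythroid markers were sparse, with 6 of 20 tested members at 5 CPM or more, and their median log2 fold change was -0.44. At an unadjusted edgeR p below 0.05, 2 were higher and 7 lower, and 3 were called lower without either dKO_EV library where none was called lower with all 8. The member called (5% of the tested list) was Tfrc, the transferrin receptor, which also serves other dividing cells. Tfrc rose from 272 and 280 to 330 and 341 CPM (0.28 ± 0.04). Of 15 stromal and endothelial markers 1 rose (6.67%), Vcam1 (0.67 ± 0.11). Of 8 tested B cell markers 0 were called by edgeR, DESeq2 or limma voom, with 2 at an unadjusted edgeR p below 0.05.

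Several metabolic genes differed. Of the 32 glycolysis genes 21.9% were called, against 3.10% of all tested genes. At an unadjusted edgeR p below 0.05, 15 glycolysis genes were higher and 2 lower. Alas1, the first enzyme of haem synthesis, rose from 245 and 251 to 333 and 321 CPM (0.40 ± 0.04), and Fth1, the ferritin heavy chain, fell from 1597 and 1632 to 1366 and 1367 CPM (-0.24 ± 0.03). Slc16a3, a lactate exporter, rose by 0.42 ± 0.06, while Slc2a3 fell. Glycolysis genes were called higher in 6 of 32 (median 0.11), a count of 10 without either dKO_EV library, 2 without dKO_MUT replicate 1, and 1 and 2 without dKO_PRMT1 replicates 1 and 2. Padi2, which converts arginine to citrulline in proteins, fell from 58.1 and 64.2 to 39.5 and 39.5 CPM (-0.63 ± 0.09), and Btg1, a cofactor that binds PRMT1, fell by 0.32 ± 0.05. These were the 2 called members among 26 arginine methyltransferases and cofactors (7.69%). Gatm, which uses arginine to make the precursor of creatine, rose from 95.6 and 95.3 to 126 and 130 CPM (0.42 ± 0.06).

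Cytosolic ribosomal protein genes showed a shift that was small but shared. Of 77 tested members 17 fell and 0 rose (22.1% called, against 3.10% of all tested genes). The median was -0.10, and the highest value of any member was -0.03. Rps14, the member with the smallest p, stood at 963 and 1011 CPM with the dead and 819 and 890 CPM with the active enzyme (-0.21 ± 0.04). The summed level of the list was 71670 and 74010 CPM with the dead and 67240 and 69240 CPM with the active enzyme, against 65450 and 67950 CPM in dKO_EV. These sums did not overlap, but the calls depended on single libraries: 1 without dKO_MUT replicate 2, 0 without dKO_PRMT1 replicate 1, 6 without dKO_PRMT1 replicate 2 and 12 without dKO_MUT replicate 1. Ribosomal protein genes have many processed copies in the genome, so the reads of single members are uncertain.

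Lists of proliferation, apart from mitosis, and of basic RNA processing gave few calls. Of the mitotic genes 8.2% were called, against 3.10% of all tested genes. At an unadjusted edgeR p below 0.05, 11 mitotic genes were higher and 0 lower. Of 62 DNA replication genes 1 was called (1.61%), Dna2 (0.24 ± 0.07). Of 35 nucleotide supply genes 1 was called (2.86%), Cad (-0.19 ± 0.05), and of 50 homologous recombination genes 1 (2%), Topbp1 (0.18 ± 0.05). Each of these 3 calls was lost without any 1 of the 4 compared libraries, with highest adjusted p of 0.3, 0.269 and 0.431, and that of Dna2 also without either WT_EV library. Of 61 mitotic genes 5 rose (median 0.07), and 0 of them without any 1 of the 4 compared libraries. In the lists of 61 oxidative phosphorylation genes, 48 hnRNP, SR and FET genes, 38 Wnt and β-catenin genes and 19 Bcl2 family genes, 0 were called by edgeR, by DESeq2 or by limma voom with all 8 libraries. Bcl2, the apoptosis inhibitor (-0.29 on the log2 scale, adjusted p = 0.0522), was called lower in edgeR with no filter on low counts (0.0226), at 5 CPM or more (0.0424), with the 4 libraries alone (0.0301) and without dKO_EV replicate 1 (0.0181), dKO_EV replicate 2 (0.0182) or dKO_MUT replicate 2 (0.0383), and Hnrnpul1 was called higher with the 4 libraries alone (0.0479). At an unadjusted edgeR p below 0.05 these lists held 3, 4, 2 and 5 genes. The hnRNP and FET proteins are known substrates of PRMT1, and the log2 fold changes of their list ranged from -0.04 to 0.43. Of 35 cholesterol and fatty acid genes 2 fell (5.71%), of which Fads2, a fatty acid desaturase, kept its call throughout (-0.32 ± 0.06).

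**Figure D5:**
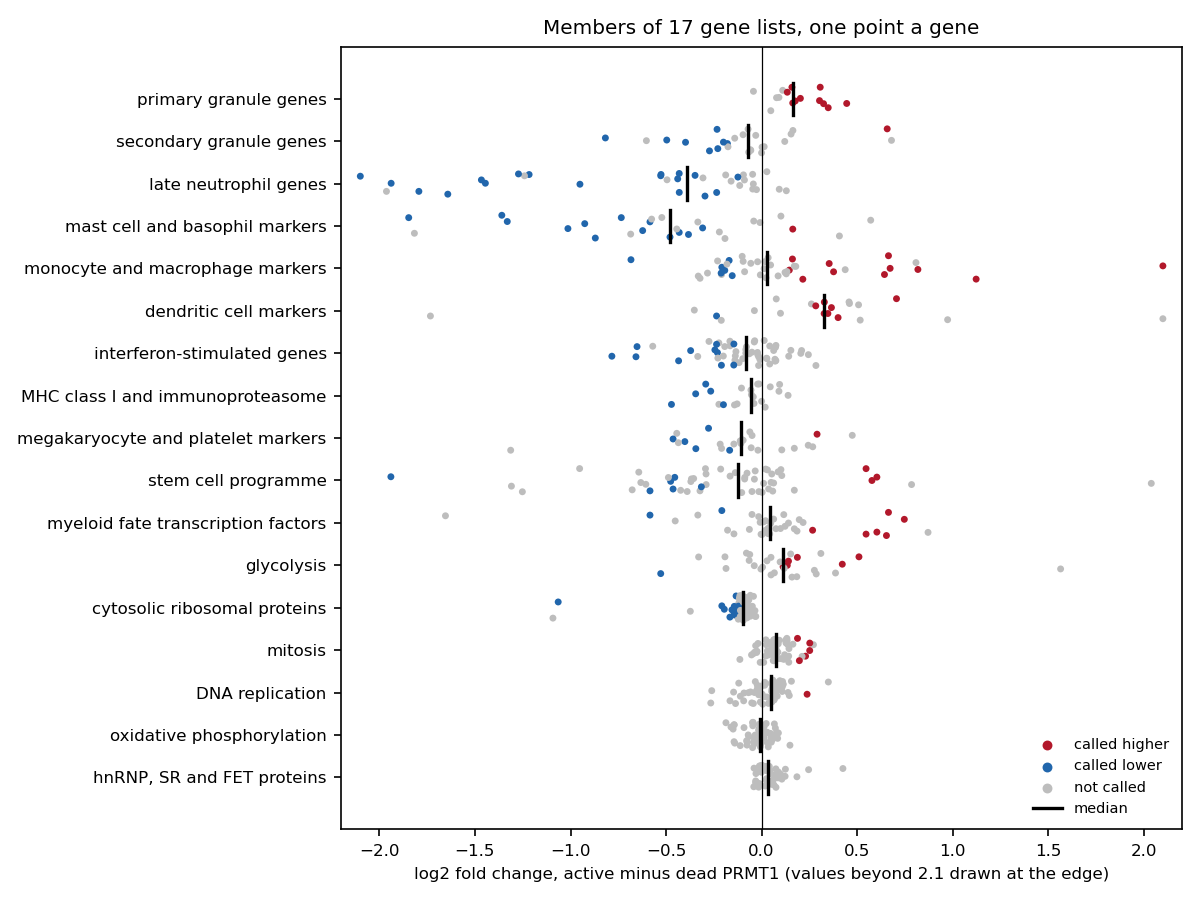
Log2 fold change of active over dead PRMT1 for the tested members of 17 gene lists, 1 point a gene, red for called higher, blue for called lower and grey for not called, with the list median as a black bar. The medians of the primary granule and dendritic cell lists lie at 0.16 and 0.33, those of the late neutrophil and mast cell lists at -0.39 and -0.48, and the ribosomal protein points all lie below 0.

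Beyond the genes above, the largest increases among genes with 5 CPM or more began with Plet1, a surface protein held by a lipid anchor, which stood at 4.24 and 4.503 CPM with the dead and 10.8 and 10.9 CPM with the active enzyme (1.31 ± 0.24, 2.48-fold). Lipg, endothelial lipase, rose 1.95-fold from 33.7 and 34.2 to 71.01 and 61.5 CPM (0.96 ± 0.10). Mgl2, a C-type lectin of macrophages and dendritic cells, rose from 14.1 and 13.1 to 23.4 and 23.6 CPM (0.79 ± 0.14), and Gpr84, a receptor for medium-chain fatty acids, from 14.1 and 12.3 to 22.6 and 21.2 CPM (0.73 ± 0.14). For Plet1, Mgl2 and Gpr84 the dead-enzyme libraries lay below dKO_EV, which read 12.5 and 8.87, 19.9 and 18.7 and 17.6 and 19.4 CPM. Mmp13, collagenase 3, was higher at 4.15 and 2.44 against 5.87 and 8.703 CPM (1.12 ± 0.21), but its call was lost without dKO_PRMT1 replicate 2 (adjusted p = 0.088).

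Among the remaining decreases, Trpm2, a calcium channel gated by ADP-ribose, fell 2.08-fold from 57.5 and 51.2 to 25.3 and 27.1 CPM (-1.05 ± 0.11), with 35.1 and 34.8 CPM in dKO_EV. Hcar2, the niacin receptor of neutrophils and macrophages, fell 2.1-fold from 20.5 and 19.9 to 9.98 and 9.31 CPM (-1.07 ± 0.15). Ifit1bl2 fell from 12.1 and 12.7 to 4.06 and 4.86 CPM (-1.47 ± 0.22), and as a close copy of other Ifit1 genes its share of their reads is uncertain. Arg2, the mitochondrial arginase, was lower at 11.05 and 12.3 against 3.56 and 6.38 CPM (-1.23 ± 0.25), with the call lost without dKO_PRMT1 replicate 1 (adjusted p = 0.18). As in every called gene, no library of one group reached the range of the other in these genes, a condition of their choice.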

How the data were processed

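The series measured RNA by strand-marking RNA-seq in 8 HSPC libraries, 2 a group. The authors deposited raw read counts per gene, made with Trim Galore 0.6.6, STAR 2.7.6a and featureCounts on GRCm38 (mm10), per the submitters' processing notes; no source used here states the counting options. Library totals of the 4 compared libraries were 18507738 to 21405414 counts. CPM values are counts scaled to 1000000 of a library's total over the tested genes, multiplied by its TMM factor.

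Counts were fitted with edgeR 4.0.16 in R 4.3.3 (TMM scaling, filterByExpr, robust quasi-likelihood test, group only) over all 8 libraries, which share 1 estimate of the spread. Of 24421 genes listed, 12744 were tested. The standard error is the log2 fold change divided by the root of the F statistic. The fit was tested on simulated counts drawn with the fitted spread, with changes placed in genes at 5 CPM or more. It recovered 46% of 1.25-fold, 84% of 1.5-fold, 96% of 2-fold and 100% of 4-fold changes. Of its 172 calls 9 were of unchanged genes. A gene that was not called can therefore still hold a small change.

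The comparison and the 43 gene lists were chosen with earlier results of these data known. Genes were named by rule: Prmt1, Hoxa9 and Ctnnb1, the cell type markers, the 12 largest increases and decreases with at least 5 CPM, an established symbol and no overlap between groups, the 3 smallest p in each direction, and the 5 smallest p among the called members of a list, or its member with the smallest p where none was called, some left out for room. Other members named (Srgn, S100a9, Ngp, Cyp11a1, Csf3r, Chil3, Prg2, Irf7, Irf8, Bst2, Slc18a2, Xcr1, Clec9a, Zbtb46, Batf3, Itgax, H2-DMa and H2-DMb1) were chosen after their values were seen. Promoters were matched to 9723 tested genes by symbol, and the bases after the start were found in a GENCODE transcript for 88.1%. Alternatives were DESeq2 1.42.0, limma voom 3.58.1, other scalings and filters, a stricter threshold, a replicate block, the 4 libraries alone and leaving out each library.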

Additional observations from a re-analysis of the deposited data

How the results depend on the processing

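Against 395 called genes in the main result, there were 390 with DESeq2's size factors in edgeR, 379 with DESeq2 and 413 with limma voom. A mean of 5 CPM or more gave 411, no filter on low counts 476 and the 4 libraries alone 507. The 2-fold count of 26 became 16 with the filter at 5 CPM, which tests fewer genes. An adjusted p below 0.01 left 218 genes, 100 higher and 118 lower. Leaving out 1 library in turn gave 170 to 549 called genes, 69 to 241 higher, 101 to 309 lower and 17 to 44 at 2-fold or more; the library left alone in its group was then assumed to vary like the others. Of the 128 called genes named by rule, 32, 40, 47 and 42 lost their call without dKO_MUT replicate 1, dKO_MUT replicate 2, dKO_PRMT1 replicate 1 and dKO_PRMT1 replicate 2, and none changed sign under any alternative run. With the replicate number as a block, 402 genes were called (186 higher, 216 lower, 26 at 2-fold), 386 of them shared with the main result; Srm lost its call (adjusted p = 0.0505) and Bcl2 gained one (0.0463). The differences of replicate 1 minus replicate 2 in the 2 compared groups had a correlation of -0.0062 across 9945 genes. This shows no shared effect of the replicate number, but it cannot tell whether the samples were paired. The share called was 0.42% of genes below 5 CPM and 5.95% of genes at 50 CPM or more; the part of depth in this was not tested.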

Other observations

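Other myeloid gene groups gave calls by edgeR in each direction. Of 37 tested myeloid cytokine receptors 4 rose and 3 fell (18.9% called, against 3.10% of all tested genes). The count that rose was 1 without dKO_MUT replicate 1 or either dKO_PRMT1 library and 2 without dKO_MUT replicate 2, and the count that fell was 6 without either dKO_EV library. Beside Cxcr2, Il1rl1 and Ifngr1, Il17ra, the interleukin-17 receptor, fell from 177 and 184 to 154 and 146 CPM (-0.26 ± 0.05), with the call lost without dKO_PRMT1 replicate 2 (adjusted p = 0.0981). Csf2rb, the shared chain of the GM-CSF and interleukin-3 receptors, rose from 792 and 821 to 906 and 907 CPM (0.17 ± 0.03). Its call was lost without dKO_MUT replicate 1 or either dKO_PRMT1 library (highest adjusted p = 0.0985), and it has a close copy, Csf2rb2, that can share its reads. Of the 42 lysosome and phagocyte oxidase genes 3 rose and 2 fell (11.9% called). The count that rose was 1 without either dKO_PRMT1 library, and the count that fell was 4 without either dKO_EV library and 1 without dKO_MUT replicate 2 or either dKO_PRMT1 library. Ctsd, the lysosomal protease cathepsin D, fell from 1088 and 1118 to 981 and 950 CPM (-0.19 ± 0.03) and kept its call without each library in turn. Atp6v0d2, a subunit of the vacuolar proton pump, rose from 14.6 and 16.6 to 23.7 and 27.4 CPM (0.72 ± 0.13), with the call lost without dKO_PRMT1 replicate 2 (adjusted p = 0.0514).

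Called genes differed from the tested genes in level and length as well as in direction. The median level over the 4 libraries was 114 CPM for the 182 genes that rose, 75.1 CPM for the 213 that fell and 29 CPM for all tested genes. The median exon length was 3089.5 bases for genes that rose, 2321 bases for genes that fell and 2872 bases for all tested genes. The part that these properties play in the calls was not tested.

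Across all called genes with a matched promoter, the GATA letters AGATAA or TTATCT occurred within 250 bases before the start in 11.8% of the 161 that fell, in 4.26% of the 141 that rose and in 5.76% of the 9723 tested. The C/EBP letters TTNNGCAA or TTGCNNAA occurred in 14.3%, 12.1% and 7.6%, and the PU.1 letters in 29.2%, 31.2% and 22.8%. These shares are descriptions of letters in a window, with no test. Of the primary granule genes, 0 of 12 held the C/EBP letters, which says only that these letters are not in this window.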
